A study of Homo sapiens with 9 samples.

Results

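Tissue factor, encoded by F3, its inhibitors, and the proteases and inhibitors that generate plasmin were compared among HEK293 cells, a human embryonic kidney line, that stably expressed HA-tagged MEK1 as the wild type (WT) or with the F53S or K57N change. MEK1 is the kinase that phosphorylates ERK, K57N is a MEK1 mutation found in sporadic cancers, and F53S is one found in RASopathies, congenital disorders of the same pathway. The 8 genes were TFPI2, TFPI, F3, THBD, PLAU, PLAUR, PLAT and SERPINE2, out of 36610 gene names on the array, and were taken as every non-control probe that carries their name. They were selected on earlier results of these same arrays, in which several of them were higher in K57N than in WT, so the differences of K57N from WT and from F53S are given below as descriptions without a p-value. The labels of WT replicates 2 and 3 conflict, since their source field reads HEK294 and HEK295 whereas their titles and cell line field read HEK293, which was used here. Total RNA was taken under steady-state conditions in 3 independent experiments per cell line and hybridized to single-dye Agilent arrays. Nothing in the sources used here says that a mutant was represented by more than a single stable line, so a difference between lines cannot be told apart from an effect of the mutation.

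Tissue factor is the membrane receptor that starts the extrinsic clotting cascade by binding factor VIIa. TFPI, a secreted protein with Kunitz-type inhibitor domains, blocks tissue factor with factor VIIa, whereas its paralog TFPI2 is deposited in the extracellular matrix and inhibits plasmin and other serine proteases. Thrombomodulin (THBD) turns thrombin towards protein C activation. Plasmin is released from plasminogen by urokinase (PLAU), which acts at the cell surface on its receptor (PLAUR), or by tissue plasminogen activator (PLAT), and SERPINE2 (protease nexin 1) inhibits thrombin and both activators. These genes are best known in endothelial cells and in migrating or invading cells.

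The 8 genes were read by 11 probes, 3 for TFPI, 2 for PLAU and 1 for each of the others. Levels are given as the log2 of the processed signal relative to the 75th percentile of the same array, so that 0 stands for a signal equal to that percentile, and levels of different probes are not compared with each other. A probe is called well above background where the scanner software marked its signal so. The arrays of replicate 1 shared slide 1, and those of replicates 2 and 3 shared slide 2. Slide 1 was dimmer, with 23711 to 26110 probes well above background against 27114 to 29319 on slide 2. Of the 7 genes listed for the HEK293 line, 6 (NEFL, VIM, KRT8, KRT18, LIN28B and PAX2) gave signals well above background on all 9 arrays, and NEFM did on 6. Of the 5 endothelial markers only CDH5 did, and TIE1 and ERG did on none. The summed signal of the endothelial list, relative to the 75th percentile, was 0.122 to 0.313 in WT, 0.155 to 0.302 in F53S and 0.193 to 0.311 in K57N. Of the 5 markers each of hepatocytes and platelets, APOA1 for the former and GP9 and ITGA2B for the latter reached that limit on all 9 arrays, as did the leukocyte markers PTPRC and CD14. The probe for MAP2K1, the gene of MEK1, read 2.36, 2.34 and 2.42 in WT, 2.504, 2.39 and 2.46 in F53S and 2.92, 2.81 and 2.82 in K57N. Its log2 difference of K57N from WT was 0.48 ± 0.13 (SE), with an adjusted p in limma of 0.135 and, with the slide as a term, of 0.0076, and the K57N arrays lay above all WT arrays. Whether this probe detects the transgene is not known from the sources used here.

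The TFPI2 signal rests on a single probe, whose 60 bases lie in the coding part of the transcript, starting at base 644, and map to chr7:93516575-93516634 (hg19, reverse strand). It is shown because the largest difference among the 8 genes was read by it, and it carries no capitals because no part of it was singled out.
TFPI2 probe: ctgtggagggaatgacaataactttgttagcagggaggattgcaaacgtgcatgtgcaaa

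For the promoters, RefSeq entries (GRCh38.p14) were found for 6 of the 8 genes, with 2 entries each for PLAU and SERPINE2. THBD and PLAT had no entry. The 250 bases before the start are shown for TFPI2, for F3 and PLAUR, which hold the same pair of motifs, and for the paralog TFPI, which holds neither, all read 5′ to 3′ towards the start. Capitals mark the matches to AP-1 (TGANTCA), EGR (GCGNGGGCG) and ETS (AGGAAG), where N is any base and both strands were searched. The regions are chr7:93890754-93891003, chr1:94541760-94542009, chr19:43670170-43670419 and chr2:187554436-187554685, all on the reverse strand.
TFPI2: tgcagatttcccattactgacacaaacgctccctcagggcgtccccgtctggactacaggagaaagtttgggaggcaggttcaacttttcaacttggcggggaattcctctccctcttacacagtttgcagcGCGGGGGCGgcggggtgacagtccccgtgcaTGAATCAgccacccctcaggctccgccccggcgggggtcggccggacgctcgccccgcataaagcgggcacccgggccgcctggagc
F3: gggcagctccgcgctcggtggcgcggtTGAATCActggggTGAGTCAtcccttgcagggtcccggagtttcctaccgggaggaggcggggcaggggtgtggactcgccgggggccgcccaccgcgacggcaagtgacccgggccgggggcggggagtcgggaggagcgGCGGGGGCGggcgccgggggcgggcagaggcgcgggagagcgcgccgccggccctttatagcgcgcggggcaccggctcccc
PLAUR: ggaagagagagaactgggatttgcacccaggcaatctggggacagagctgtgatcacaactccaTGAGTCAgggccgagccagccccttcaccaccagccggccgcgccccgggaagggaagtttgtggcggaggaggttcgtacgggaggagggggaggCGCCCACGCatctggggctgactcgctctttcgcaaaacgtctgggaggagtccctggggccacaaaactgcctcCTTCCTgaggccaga
TFPI: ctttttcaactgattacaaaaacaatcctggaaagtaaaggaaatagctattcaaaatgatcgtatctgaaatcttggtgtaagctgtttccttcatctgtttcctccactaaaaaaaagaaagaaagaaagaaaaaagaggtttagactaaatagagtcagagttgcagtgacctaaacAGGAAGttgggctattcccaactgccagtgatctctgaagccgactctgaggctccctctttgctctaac

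An AP-1 match was present in 3 of the 6 genes. It lay 87 bases before the start in TFPI2, 186 bases before it in PLAUR, and at 223 and 210 bases in F3. The same promoters held an EGR match, at 118 bases in TFPI2, 82 in F3 and 90 in PLAUR. Among all 35116 promoters, 6.6% held the AP-1 letters, 8.4% the EGR letters and 0.19% both; that pairing was looked at after the matches had been seen. The ETS letters were found in TFPI, in PLAUR and in 1 of the 2 PLAU entries, and in 28.7% of all promoters. The SP1 letters (GGGCGG), which overlap the EGR match in TFPI2 and F3, were found in TFPI2, F3, PLAU and SERPINE2, and in 42.6% of all promoters. The other PLAU entry held none of the 4 motifs. A match is a description of the letters and not evidence that a factor binds there.

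TFPI2 was the member with the largest difference between lines. Its processed signal was 129, 623 and 528 in WT, 161, 844 and 950 in F53S, and 7770, 13800 and 13800 in K57N. On the log2 scale these were levels of -1.14, -0.39 and -0.40 in WT, -0.61, 0.12 and 0.37 in F53S, and 4.37, 4.07 and 4.11 in K57N. Every K57N array lay above every array of the other lines, while F53S and WT overlapped. The mean K57N level exceeded that of WT by 4.83 ± 0.30 (SE) on the log2 scale, a 28.4-fold difference, and that of F53S by 4.22 ± 0.30, an 18.7-fold difference. The difference from WT was 5.51 between the arrays of slide 1 and 4.48 on slide 2. F53S differed from WT by 0.61 ± 0.30, and this did not pass the test (adjusted p = 1.0 in limma), although F53S was above WT at each of the 3 replicate numbers.

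TFPI, the paralog that inhibits tissue factor, differed less. Its brightest probe (chr2:188329008-188329067, hg19) read -3.85, -2.54 and -2.46 in WT, -4.45, -2.29 and -2.14 in F53S, and -2.14, -1.52 and -1.70 in K57N. The arrays of slide 1 in WT and F53S were not well above background, on this probe and on both others. The K57N arrays lay above the WT arrays but overlapped F53S. The log2 difference of K57N from WT was 1.17 ± 0.63 (SE) on this probe, and 0.995 ± 0.45 and 1.16 ± 0.73 on the others. On slide 2 alone, where all 6 arrays were above background, it was 0.89 on the brightest probe. F53S differed from WT by -0.60 on slide 1 and 0.29 on slide 2, a mean of 0.00 ± 0.63 (adjusted p = 1.0 in limma).

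**Figure D1:**
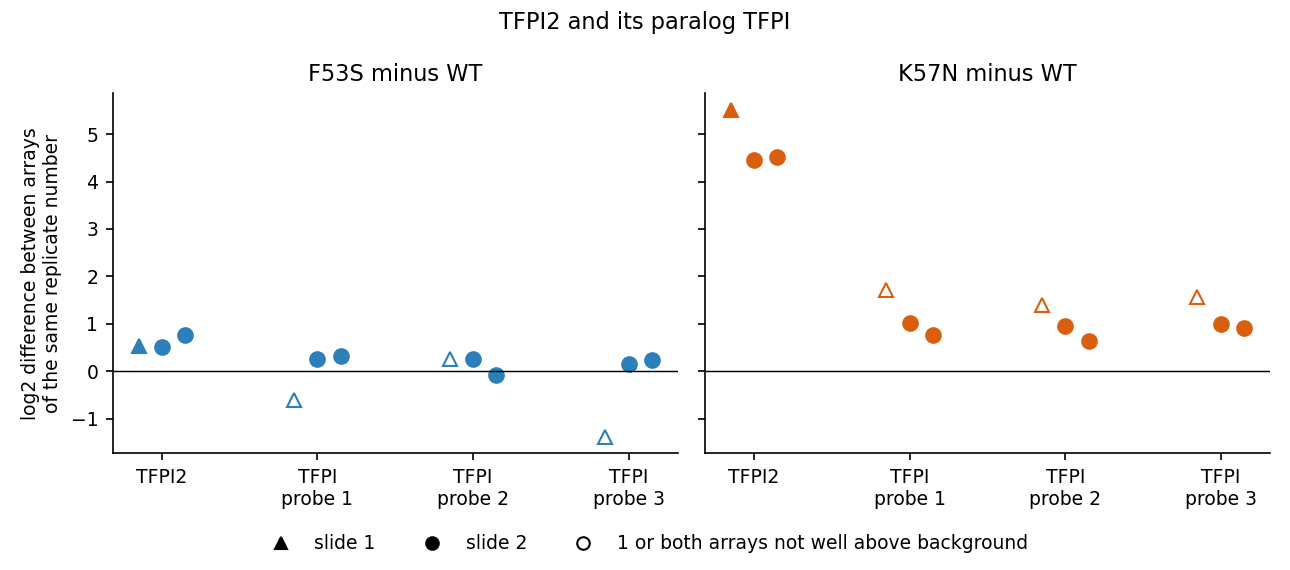
Log2 difference from the WT array of the same replicate number (y axis) for the TFPI2 probe and the 3 TFPI probes (x axis), in F53S (left) and K57N (right). Triangles are slide 1 and circles slide 2, and open symbols have at least 1 array not well above background. TFPI2 lies at 4.46 to 5.51 in K57N, and the brightest TFPI probe (probe 1) at 0.77 to 1.71.

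Within each array, the TFPI2 level less that of the brightest TFPI probe was 2.71, 2.15 and 2.07 in WT, 3.85, 2.41 and 2.51 in F53S, and 6.51, 5.59 and 5.81 in K57N. This quantity has meaning only as a change between lines, since the probes differ. It was 0.61 higher in F53S than in WT over all arrays and 0.35 higher on slide 2 alone, where TFPI was above background on every array. F53S was above WT at each replicate number, on slide 1 with TFPI not above background. An exact two-sided permutation test over the 3 and 3 arrays, taken as unpaired, gave p = 0.30. The smallest p that this design allows is 0.10, so the test could not have passed 0.05. The same quantity was 3.66 higher in K57N than in WT and 3.05 higher than in F53S, and every K57N array lay above all others. With the mean of the 3 TFPI probes in place of the brightest, the change from WT to K57N was 3.72.

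F3, which encodes tissue factor, read -2.34, -1.81 and -1.87 in WT, -2.38, -1.66 and -1.58 in F53S, and -0.64, -0.62 and -0.63 in K57N (chr1:94995080-94995139, hg19). The K57N arrays were above all others and nearly equal among themselves, and F53S overlapped WT. K57N exceeded WT by 1.38 ± 0.25 (SE) on the log2 scale, or 2.61-fold, and F53S by 1.25 ± 0.25. F53S differed from WT by 0.13 ± 0.25 (adjusted p = 1.0 in limma).

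THBD, the thrombin receptor of the protein C pathway, read -0.98, -1.24 and -1.19 in WT, -0.57, -0.71 and -0.72 in F53S, and 2.27, 0.85 and 0.91 in K57N (chr20:23026807-23026866, hg19). The 3 lines did not overlap, with F53S between WT and K57N. K57N exceeded WT by 2.48 ± 0.35 (SE), or 5.59-fold, and F53S by 2.01 ± 0.35. The K57N array of slide 1 stood apart from those of slide 2, so that the difference from WT was 3.25 on slide 1 and 2.10 on slide 2.

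Urokinase and its receptor were both higher in K57N. The PLAU probe printed 10 times on the array (chr10:75677050-75677109, hg19) read -0.52, -0.99 and -1.098 in WT, 0.20, -0.51 and -0.60 in F53S, and 1.86, 0.82 and 0.80 in K57N. The K57N arrays lay above all others, and F53S lay above WT on each slide, although the arrays of these lines overlapped across slides. K57N exceeded WT by 2.03 ± 0.35 (SE), or 4.08-fold, and F53S by 1.47 ± 0.35. At the second PLAU probe, chr10:75674614-75674673, no WT array gave a signal well above background. K57N was 3.04-fold above WT there against a floor. For this floor, WT was set at the lowest signal called well above background, or at the probe's own value where that was higher.

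PLAUR read -1.25, -1.64 and -1.40 in WT, -1.104, -1.34 and -1.16 in F53S, and 2.08, 0.79 and 0.73 in K57N (chr19:44169498-44169557, hg19). F53S overlapped WT, and K57N was above both. The K57N level exceeded WT by 2.63 ± 0.34 (SE), or 6.18-fold, and F53S by 2.40 ± 0.34. As for THBD and PLAU, the difference from WT was larger on slide 1 (3.33) than on slide 2 (2.28). After TFPI2, PLAUR had the largest difference between K57N and WT among the members.

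PLAT, the other plasminogen activator, did not follow urokinase. It read 2.63, 1.18 and 1.102 in WT, 2.59, 1.42 and 1.23 in F53S, and 2.26, 1.64 and 1.70 in K57N (chr8:42032812-42032871, hg19, 10 spots). The slide 1 arrays were the highest in each line, and all lines overlapped. K57N differed from WT by 0.23 ± 0.49 (SE), with opposite signs on slide 1 (-0.37) and slide 2 (0.53).

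SERPINE2, the inhibitor of thrombin and of the plasminogen activators, read -0.99, -0.85 and -0.61 in WT, -0.08, -0.06 and 0.00 in F53S, and 0.42, 0.76 and 0.87 in K57N. Its probe spans a splice junction, since its 60 bases map between the ends of chr2:224840597-224842295 (hg19). The 3 lines did not overlap and F53S was about midway, 0.77 ± 0.18 (SE) above WT and 0.74 ± 0.18 below K57N. K57N exceeded WT by 1.51 ± 0.18, or 2.84-fold, with similar values on slide 1 (1.42) and slide 2 (1.55).

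**Figure D2:**
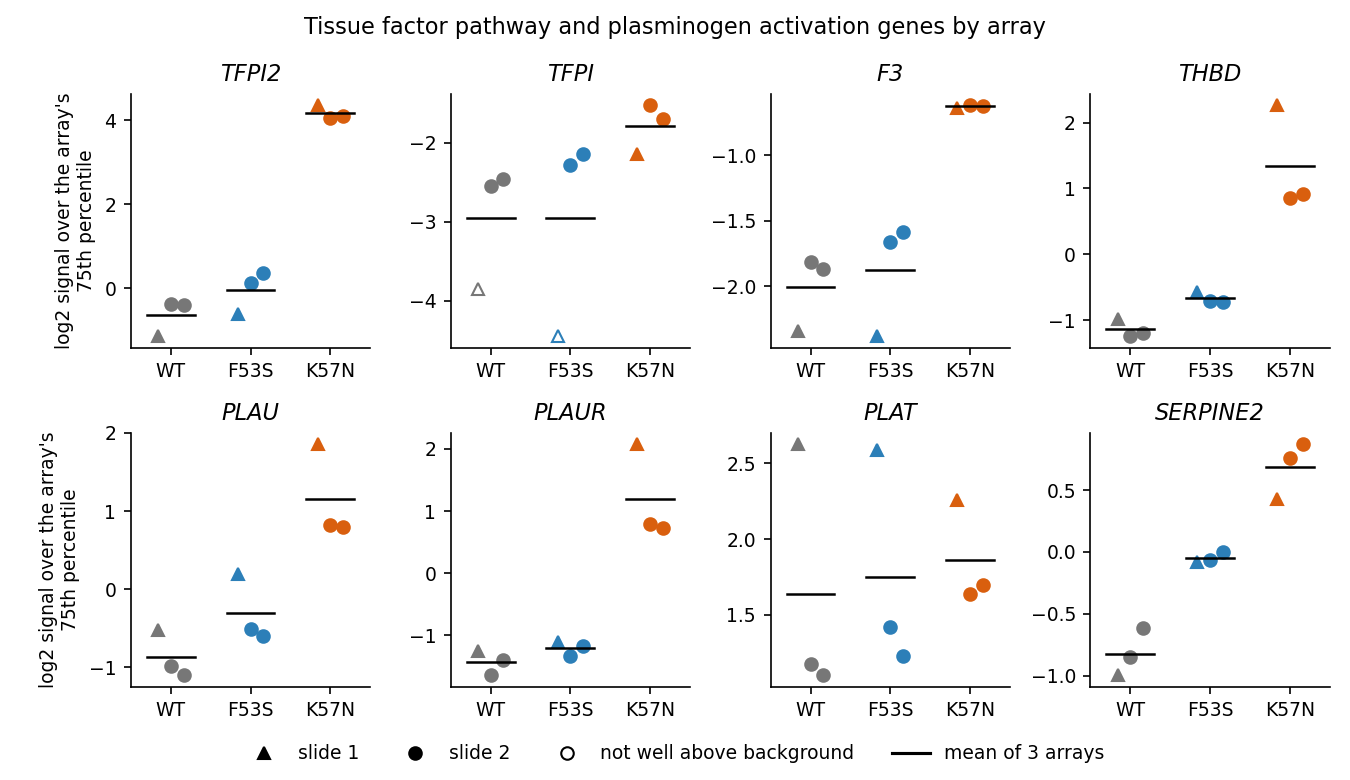
Level of each gene on each array (y axis, log2 of the signal relative to the array's 75th percentile, with its own range in each panel) in the WT, F53S and K57N lines. Triangles are slide 1, circles slide 2, open symbols are not well above background, and bars are means of 3 arrays. The K57N arrays lie above all others except in TFPI, where they overlap F53S, and in PLAT, where the lines overlap.

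Counted by the test across all genes, a call required more than 2-fold and an adjusted p below 0.05, with 1 probe per gene. In K57N against WT, 6 of the 8 members met this, all higher (TFPI2, F3, THBD, PLAU, PLAUR and SERPINE2), beside 1.51% of the 19204 genes tested that were called higher and 0.739% called lower. With the slide as a term in the fit, 7 members did, TFPI included, beside 2.55% called higher and 1.96% called lower. In K57N against F53S, 3 members met it (TFPI2, THBD and PLAUR) beside 0.953% of genes. With the slide as a term 6 did, beside 1.88%, and with the replicate block 5 did, beside 1.81%; both added F3 and PLAU, and the slide term also TFPI. TFPI passed the filter on dim probes only through K57N, so its calls are no test. Nothing is read from these counts, because the members were selected on these arrays. The median log2 difference of the members was 1.77 from WT and 1.36 from F53S, and that of all genes tested -0.06 and -0.07.

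**Figure D3:**
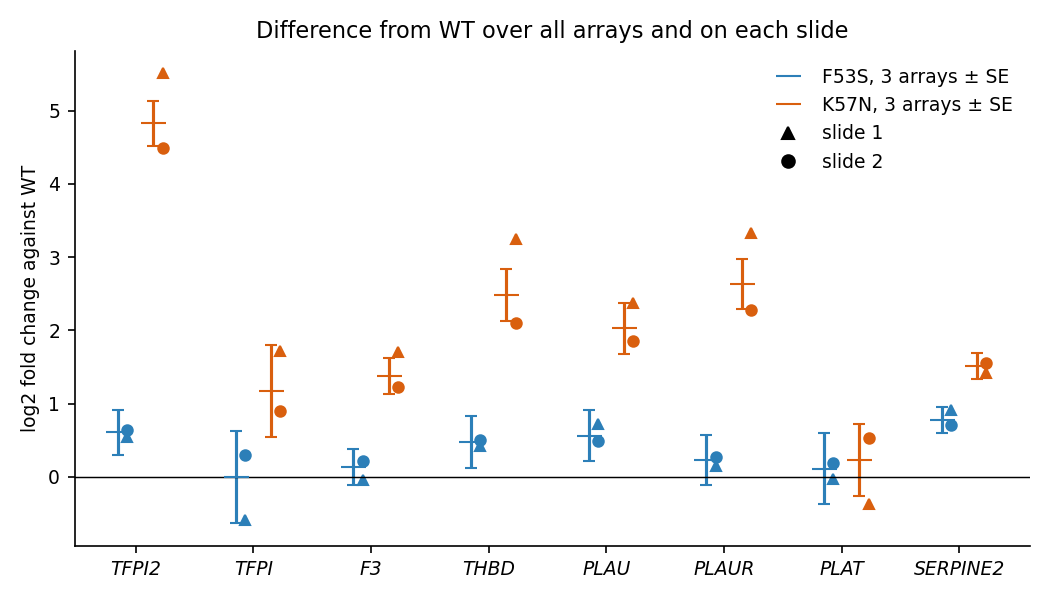
Log2 fold change against WT (y axis) of each member (x axis), F53S in blue and K57N in orange. Horizontal marks with bars are the estimates over 3 arrays ± SE, triangles the difference on slide 1 and circles that on slide 2. TFPI2 in K57N is at 4.83, and PLAT in K57N changes sign between the slides.

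F53S against WT was taken as a comparison that did not choose the members, which cannot be checked from the sources used here. It shares the WT arrays with K57N against WT, and selection for low WT values would also raise F53S over WT. The p-values and counts below, set beside unselected genes, are therefore descriptions and not tests. None of the 8 members was called by limma, nor was any of the 19204 genes (0% higher, and 0% higher with the slide as a term). At an unadjusted p below 0.05, limma gave 1 member, SERPINE2, beside 0.89% of all genes, and the methods' t-test 2, SERPINE2 and THBD, beside 1.46%. With the slide as a term, limma gave 3 members, TFPI2, PLAU and SERPINE2, beside 4.05%. The mean difference was above 0 in 7 of the 8 and in 54.2% of all genes, with a median of 0.35 against 0.01 for all genes. In 5 members (TFPI2, THBD, PLAU, PLAUR and SERPINE2) F53S was above WT at all 3 replicate numbers, which was so for 16.2% of all genes. In THBD and SERPINE2 all 3 F53S arrays lay above all 3 WT arrays, which was so for 1.53% of all genes. SERPINE2 came closest to a call, 1.71-fold above WT, with an adjusted p in limma of 1.0 and of 0.145 with the slide as a term. Over all arrays the order of the mean levels was WT, F53S, K57N in every member but TFPI, where WT and F53S were level. K57N at the top is what the members were selected on, and the share of all genes with this order is not given here. In PLAT the steps were 0.11 and 0.12, each ± 0.49 (SE). On slide 1 PLAT ran the other way, at 2.63 in WT, 2.59 in F53S and 2.26 in K57N. F53S there differed from WT by -0.04 in F3 and -0.60 in TFPI, whose WT and F53S signals were not above background. On slide 2 TFPI followed the order. The step from WT to F53S stayed within the overlap of the arrays in TFPI2, F3, PLAU, PLAUR and PLAT.

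The other genes of the pathway and the neighbours of TFPI2 were taken from 6 lists of 67 genes, of which 31 were tested. The lists were written from general knowledge, but with earlier results of these arrays known. The p-values and calls of their genes in the K57N comparisons, here and below, are therefore descriptions. In K57N against WT, 2 of these were called higher and 2 lower, beside 1.51% and 0.739% of all genes, and in K57N against F53S 2 were called higher, beside 0.953%. In both, 1 of those higher was SERPINB2, which passed the filter on dim probes only through K57N, so its call is no test. In the former comparison 1 to 3 genes of each list passed an unadjusted p below 0.05 in limma, as did 13.2% of all genes, and 13.6% did in the methods' t-test. None was called in F53S against WT. There limma gave an unadjusted p below 0.05 for 1 (F2RL1) and the methods' t-test for 2, beside 0.89% and 1.46% of all genes. The median difference of the 31 genes between K57N and WT was 0.04, against -0.06 for all genes.

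Among the protease-activated receptors, which sense thrombin, factor VIIa and related proteases, 1 of 3 tested was called. F2RL1, the receptor cleaved by tissue factor with factor VIIa, read 1.01, 1.36 and 1.32 in WT, 1.53, 1.71 and 1.75 in F53S, and 2.85, 2.85 and 2.99 in K57N. The 3 lines did not overlap. F2RL1 rose by 1.66 ± 0.16 (SE) on the log2 scale between WT and K57N, with an adjusted p of 0.0017 in limma, and by 1.23 ± 0.16 between F53S and K57N, with an adjusted p of 0.011. The latter call was lost under 6 of 20 alternatives, the former under none. F2R, the main thrombin receptor, and F2RL3 differed between K57N and WT by 0.43 ± 0.15 and -0.12 ± 0.24 and were not called. The second, dimmer F2R probe differed by 1.15 ± 0.34 and was called with the slide as a term (adjusted p of 0.0038 in limma, against 0.145 without it).

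Of the other plasminogen system genes, 8 of 15 were tested. SERPINB2, the inhibitor of urokinase also called PAI-2, read -0.66, -2.43 and -2.43 in K57N, all well above background, whereas none of the 6 WT and F53S arrays reached that limit. K57N was 7.47-fold above WT and 7.64-fold above F53S when these lines were set at the lowest signal called well above background. No p is given, since the probe was tested only because it was bright in K57N. With normexp background correction the fitted log2 differences were 1.82 and 1.64, below the 2.90 and 2.93 of those folds, which are bounds only under the main processing. A second probe named SERPINB2 was below the background limit on all 9 arrays. PLG, which encodes plasminogen itself, stayed below that limit on all 9 arrays. LRP1, the endocytic receptor that clears protease and inhibitor complexes, read -0.99, -1.68 and -1.48 in WT, -1.44, -1.56 and -1.57 in F53S, and -2.72, -2.25 and -2.43 in K57N. It fell by 1.08 ± 0.22 (SE) between WT and K57N (adjusted p = 0.043 in limma), a call lost under 14 of 20 alternatives, and its second, dimmer probe differed by -0.08 ± 0.36. The plasminogen-binding proteins ANXA2, S100A10, ENO1 and PLGRKT differed by 0.22, -0.29, 0.04 and -0.15 and were not called.

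Among 16 coagulation factors, only F8, F10, F12 and VWF were tested and none was called in any comparison. In K57N against WT, 3 and 2 of the 4 had an unadjusted p below 0.05 in limma and the methods' t-test, beside 13.2% and 13.6% of all genes. F12 differed between K57N and WT by 0.95 ± 0.28 (SE; adjusted p = 0.148 in limma) and F10 by -0.97 ± 0.42 (adjusted p = 0.369). F7, the ligand of tissue factor, was not tested, because it was too dim in every line. Of 8 natural anticoagulants, PROC, PROCR and PROS1 were tested and none was called, with 1 at an unadjusted p below 0.05 in either test, beside the same shares. PROCR, the endothelial protein C receptor, differed by 0.70 ± 0.23 (adjusted p = 0.206) and PROS1 (protein S) by 0.16 ± 0.32 (adjusted p = 0.968).

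Of 14 other genes with Kunitz-type domains, 7 were tested and none was called higher. PAPLN, which encodes the matrix protein papilin, read 0.44, 0.56 and 0.69 in WT, 0.11, 0.38 and 0.41 in F53S, and -0.77, -0.30 and -0.28 in K57N. It fell by 1.01 ± 0.19 (SE) between WT and K57N (adjusted p = 0.031 in limma), just past the 2-fold limit, a call lost under 16 of 20 alternatives. Its second probe differed by -0.50 ± 0.51. The cell-surface inhibitors SPINT1 and SPINT2 differed by -0.57 ± 0.31 and 0.34 ± 0.37 and were not called.

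**Figure D4:**
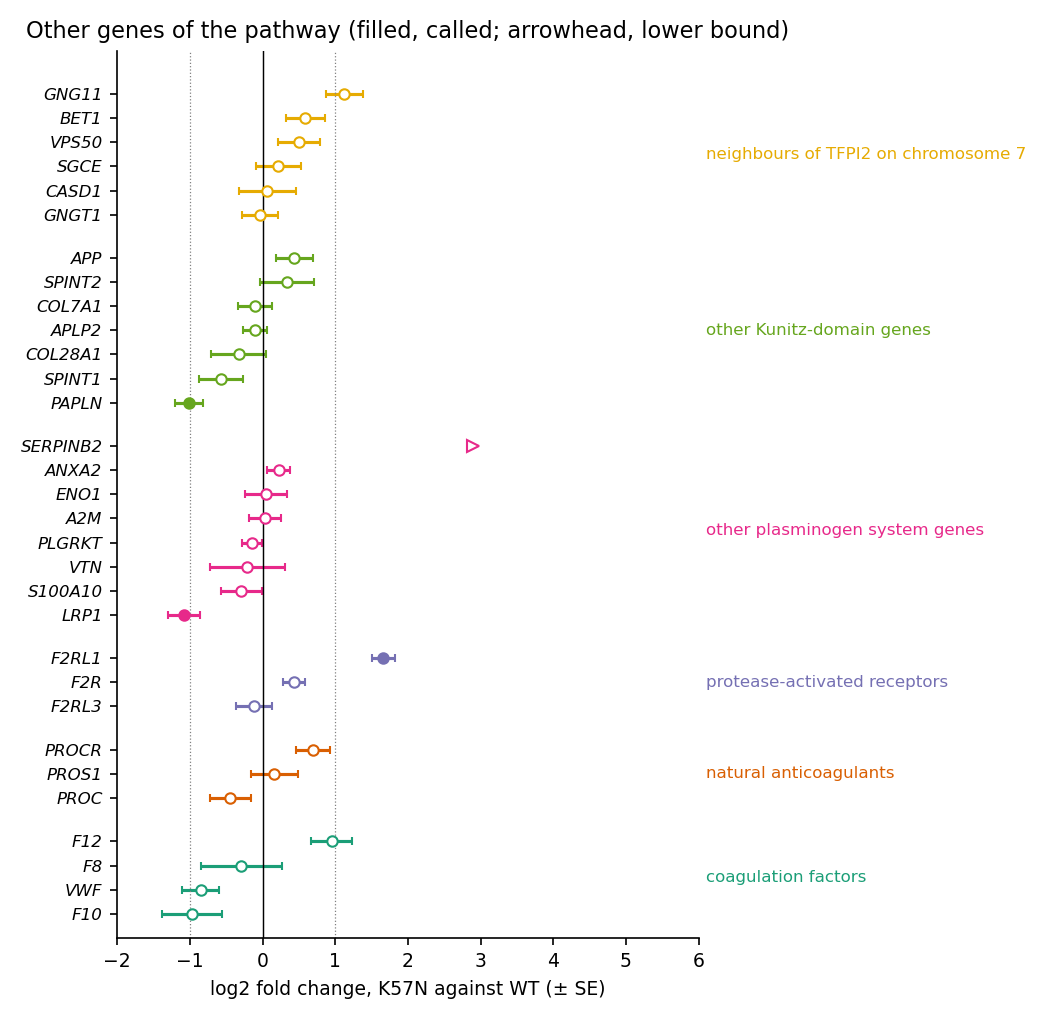
Log2 fold change of K57N against WT (x axis, ± SE) for the 31 tested genes of the other lists, grouped and coloured by list. Filled points were called, dotted lines mark 2-fold, and the open arrowhead is a lower bound under the main processing. F2RL1, at 1.66, is the filled point on the right, LRP1 and PAPLN are those on the left, and SERPINB2, with WT below background, is shown at its bound of 2.90.

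TFPI2 lies in a cluster of genes on chromosome 7, of which 6 of 10 neighbours were tested and none was called. In K57N against WT, 1 had an unadjusted p below 0.05 in limma and in the methods' t-test, beside 13.2% and 13.6% of all genes. GNG11, a G protein gamma subunit with its probe 0.0392 Mb away, read 2.63, 2.10 and 1.87 in WT, 2.82, 2.25 and 2.08 in F53S, and 3.33, 3.29 and 3.34 in K57N. The K57N arrays lay above all others, by 1.12 ± 0.26 (SE) from WT, with an adjusted p of 0.064 in limma and 0.0035 with the slide as a term, where it was called. GNGT1, at 0.0196 Mb and nearer to TFPI2, differed by -0.04 ± 0.25, and SGCE, at 0.698 Mb, by 0.22 ± 0.31. BET1, at 0.109 Mb, differed by 0.59 ± 0.26 and VPS50, at -0.629 Mb, by 0.50 ± 0.29, with the K57N arrays above all others in both. A second BET1 probe differed by -0.12 ± 0.39, and CASD1 by 0.07 ± 0.39. The difference was above 0 in 5 of the 6 neighbours, beside 42.9% of all genes, with a median of 0.36 against -0.06.

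**Figure D5:**
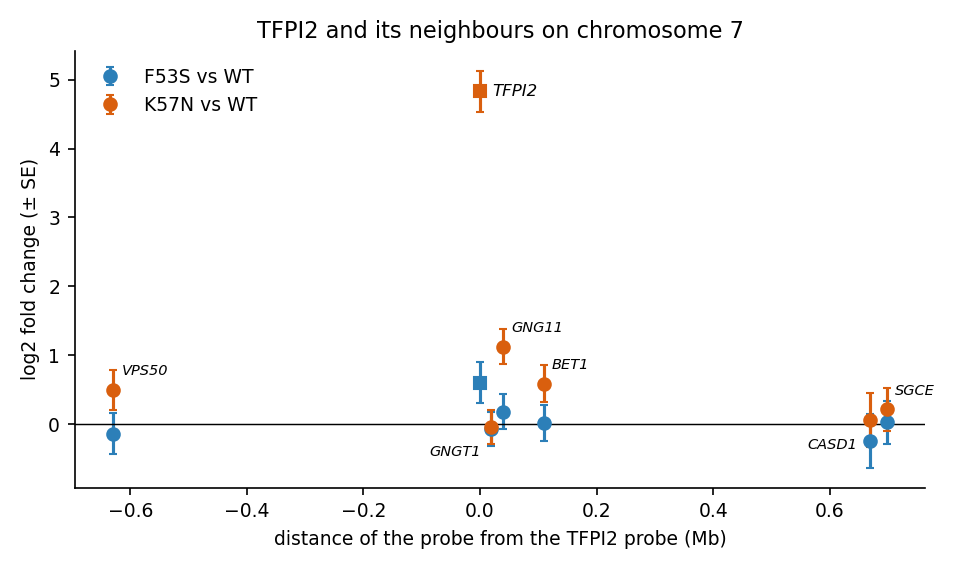
Log2 fold change against WT (y axis, ± SE) by distance of the probe from that of TFPI2 (x axis, Mb) for TFPI2 (squares) and 6 neighbours on chromosome 7 (circles), F53S in blue and K57N in orange. In K57N, TFPI2 is at 4.83 and the neighbours lie between -0.04 and 1.12, and in F53S the neighbours lie between -0.24 and 0.18.

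The pattern of TFPI2 over the 9 arrays was compared with that of 19145 other genes by Pearson's r, after the mean of each slide was subtracted, as a description. The most similar were TRIML2, KLK6, ABCB1, ZFP36 and NDRG1, with r from 0.998 to 0.999. Their mean K57N levels exceeded WT by 3.64, 3.10, 2.31, 1.97 and 1.61 on the log2 scale, and F53S exceeded WT by 0.13 to 0.37. Among the members, r with TFPI2 was 0.994 for PLAUR, 0.992 for F3, 0.989 for THBD and 0.984 for PLAU, and lower for TFPI (0.896), SERPINE2 (0.887) and PLAT (0.312). With 3 lines as the main source of difference, a high r says little more than that K57N stood apart while WT and F53S were close. Without subtraction of the slide mean, TRIML2 stayed at the top of the order and ABCB1 moved to place 5. KLK6, ZFP36 and NDRG1 moved to places 150, 405 and 840.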

How the data were processed

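Per the labels, Cy3-labeled cRNA of 9 samples (3 each of WT, F53S and K57N) was hybridized to Agilent human arrays and read with Agilent Feature Extraction 10.10.1.1. For every array the authors deposited a processed signal, which is an intensity from which background was subtracted and which was not scaled between arrays. The deposited log2 values equal the log2 of that intensity up to a constant per array (99.5% to 99.8% of probes lie within 0.02) and served as an alternative.

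Signals were taken as log2 values less the log2 of the array's 75th percentile over its 58716 non-control spots. Spots marked as uneven or outliers were left out and repeated spots averaged. A probe was tested if well above background, on most of its spots, on all 3 arrays of at least 1 line (25397 probes, 19204 genes), and a gene was represented by its brightest tested probe. Probes were named through RefSeq for 28352 of 50598 and by the array otherwise. Positions are those of the array's annotation (hg19). Lines were compared with limma, with a mean for each line, and the Benjamini-Hochberg adjustment ran over every tested probe. Tools were R 4.3.3, limma 3.58.1, data.table (1.17.8), Python 3.11.15, pandas 2.3.3 and matplotlib 3.10.9. The procedure was tested on simulated data. The number of arrays limits the precision.

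The members and lists were chosen with earlier results of these data known, although the lists were written from general knowledge and not from values. The named genes were the members, MAP2K1, genes of the fixed lists that were called or, failing that, had the highest level, and the 5 genes most like TFPI2; others are named for their role. Arrays of the same replicate number correlated across genes, after removal of line means, with r of 0.35 to 0.88 for every pair of lines. Different numbers were not compared, so this cannot tell pairing by number from a shift between the slides. The 3 arrays of replicate 1 also shared a slide, apart from the rest. As alternatives, the background was corrected by normexp (offset 50), arrays were quantile-normalized, the filter on dim probes was dropped or required on all 9 arrays, probes of a gene were averaged, only the 2 groups compared were fitted, the replicate block or the slide was added, the deposited log2 values or the methods' t-test were used, slide 2 was fitted alone, and each array was left out in turn. No protein sequences were used here. Some genes of the lists are not reported here.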

Additional observations from a re-analysis of the deposited data

How the results depend on the processing

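Of the 6 members called in K57N against WT, 4 to 6 were called when each array was left out in turn, beside 0.818% to 1.77% of all genes called higher, and 1 with the methods' t-test after adjustment, beside 0.427%. In K57N against F53S, the 3 members called became 1 without the filter on dim probes (beside 0.323% of all genes called higher), 1 with only the 2 groups compared (0.578%), 5 with the replicate block (1.81%), 6 with the slide term (1.88%), 5 on slide 2 alone (1.78%), 0 with the methods' t-test after adjustment (0.125%), and 1 to 3 when an array was left out (0.344% to 0.989%), with 1 without F53S replicate 2 or 3. The replicate block changed no other count of members by over 1.5 times. The members were selected on the K57N arrays, so their calls are given as a description and support nothing. In K57N against WT, TFPI2 was called under all 20 alternatives, at 4.48 to 4.95, whereas F3 lost the call under 9, PLAU under 6, and THBD, PLAUR and SERPINE2 under 1 each. In K57N against F53S, THBD lost it under 12, PLAUR under 5 and TFPI2 under 1.

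Of the pathway list genes, 2 were called higher in K57N against WT, 1 with the filter on all 9 arrays, 1 with the methods' t-test and 4 on slide 2 alone. Those called lower (LRP1 and PAPLN) became 0 with normexp, with no filter on dim probes, with the mean of a gene's probes, with only the 2 groups compared, with the methods' t-test and on slide 2 alone, 1 with quantile normalization, 1 with the deposited log2 table, and 0 to 2 when an array was left out, with 0 for every array but F53S replicate 1. In K57N against F53S, the 2 genes called higher (F2RL1 and SERPINB2) became 1 with normexp, 1 with no filter on dim probes, 1 with the filter on all 9 arrays, 0 with the methods' t-test, and 0 to 2 when an array was left out, with 0 without F53S replicate 2 or 3 and 1 without K57N replicate 2 or 3. The cause was not tested, other than that the filter on all 9 arrays leaves SERPINB2 and TFPI out.

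Differences that were never called changed sign. For F53S against WT, TFPI was 0.14 with normexp and 0.29 on slide 2 alone, and LRP1 was 0.14 with the mean of its probes and 0.016 on slide 2 alone. When an array was left out, that difference ranged from -0.46 to 0.74 for TFPI, -0.034 to 0.38 for F3, -0.31 to 0.61 for PLAT and -0.29 to 0.056 for LRP1. PLAT ranged from -0.039 to 0.72 for K57N against WT and from -0.14 to 0.54 for K57N against F53S. Signals near background limit TFPI on slide 1 and SERPINB2 in WT and F53S.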
